A study of Mus musculus with 32 samples.

Results

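The mRNA levels of 10 genes of the NF-kB pathway were followed in mouse epidermis without UV and 24 h after UV exposure. These genes were matched by symbol among the 55401 gene identifiers of the read counts, and each symbol matched 1 identifier. They encode the 5 NF-kB subunits (Nfkb1, Nfkb2, Rela, Relb and Rel), 4 regulators that act on those subunits or on the signal upstream of them (Nfkbia, Nfkbiz, Tnfaip3 and Bcl3) and the cytokine Tnf. All 10 had enough reads to enter the tests, as did 15546 genes in all.

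Epidermis was taken from the backs of 32 mice, 1 RNA-seq library per mouse, in 8 groups of 4. WT and KO littermates of the SKH-1/SV129/BL6/J background, aged 10 to 14 weeks, of both sexes, were either sham handled (Control) or irradiated once with 120 mJ/cm2 of UV, a dose below the one that reddens the skin, and killed 24 h later (UV). The KO mice are labelled as lacking Ppard, which encodes the nuclear receptor PPARβ/δ (Ppard-/-). The counts do not check that label well, because reads on Ppard remained in every KO mouse. Ppard ranged from 87.3 to 105 normalized cpm (median 94.0) in the 8 WT controls and from 70.3 to 88.9 (median 77.5) in the 8 KO controls, and these groups overlapped. After UV it lay between 252 and 326 normalized cpm (median 279) in WT and between 175 and 239 (median 219) in KO, without overlap. The KO minus WT difference of Ppard was -0.26 on the log2 scale without UV (adjusted p = 0.156, edgeR) and -0.42 after UV (adjusted p = 0.00114, edgeR). Normalized cpm are counts per 1000000 reads on genes, with library sizes scaled by the TMM method.

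NF-kB is a family of transcription factors that act as pairs of subunits. In resting cells the pairs are held in the cytoplasm by IkB proteins, and signals from TNF, interleukin-1 or Toll-like receptors activate the IKK kinases, which mark the IkB for destruction so that the pair moves to the nucleus. Several of the genes it then switches on encode its own inhibitors, which makes the response self-limiting. In the epidermis the pathway is known for its part in the inflammatory response to UV and in keratinocyte survival.

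Between 22919428 and 40653581 reads per mouse fell on genes (median 27600228), and the scarcest of the 10 genes, Tnf, still had at least 32 reads in every mouse. Keratinocyte markers, the check of the labelled tissue, were abundant in all mice. The sum of 7 basal ones (Krt5, Krt14 and others) went from a median of 11860 normalized cpm in WT controls to 22470 after UV, and that of 8 suprabasal ones (Krt1, Krt10 and others) from 78200 to 25450. Immune markers moved with UV too. In WT mice the summed T cell markers (14 genes) went from a median of 223 to 95.5 normalized cpm and the summed Langerhans and dendritic cell markers (10 genes) from 901 to 330, whereas the summed neutrophil, monocyte and macrophage markers (12 genes) went from 94.6 to 156. Ptprc, carried by all leukocytes, had a median of 20.7 normalized cpm in WT controls and 10.9 after UV, and of 23.1 and 19.8 in KO mice. The part of these shifts in the results was not tested. Fewer cells of a type and less RNA per cell cannot be told apart in whole epidermis. Summed skeletal muscle markers (6 genes) varied widely within each group of genotype and treatment. They ranged from 9.17 to 1457 normalized cpm in WT controls and from 4.07 to 2504 (38M) after UV. In KO mice they ranged from 7.81 to 3468 (60F) and from 3.82 to 2156 (54F). The part of this muscle RNA was not tested either. The KO mouse 54F (female, UV) stood apart with summed fibroblast markers of 1995 normalized cpm, against a median of 11.6 in its genotype and treatment, and without it the count of members called after UV in KO mice was 9, as with it.

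The members are spread over 8 chromosomes (GENCODE M21, GRCm38). RefSeq promoter windows of 300 bases (GRCm38.p6, from 250 bases before to 50 after a transcription start) were at hand for 7 of the 10 genes, in 10 windows. They were searched on both strands for the κB consensus, the 10-letter site bound by NF-kB pairs, and overlapping matches were counted as 1 site. A match was found for 5 genes (Nfkb2, Rel, Nfkbia, Tnfaip3 and Bcl3) and none in the single windows of Rela and Tnf. A match was present in 8.46% of all 32851 windows on hand, and of all 27025 gene symbols 9.55%. The stretches around 1 match per gene are shown 5′ to 3′ on the gene's strand, because these genes differ in their response to UV. Capitals mark the match.
Nfkb2 (chr19:46304692-46304721, + strand, 45 to 16 bases before the start): cgtcacGGGAATTCCCCccctcggggggcc
Rel (chr11:23771034-23771079, - strand, 110 to 65 bases before the start): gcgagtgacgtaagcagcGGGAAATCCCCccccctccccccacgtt
Nfkbia (chr12:55492648-55492707, - strand, 60 to 1 bases before the start): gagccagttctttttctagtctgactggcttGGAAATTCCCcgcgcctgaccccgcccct
Tnfaip3 (chr10:19015411-19015440, - strand, 30 to 1 bases before the start): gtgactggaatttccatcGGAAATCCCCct
Bcl3 (chr7:19822736-19822765, - strand, from 10 bases before the start to base 20 of the transcript): agtcggcggcagGGGAAGTCCCgctgcccg

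The windows of Nfkb2 and Tnfaip3 held further matches. In Nfkb2 a second site lay 11 to 2 bases before the same start, and 2 more lay in windows of the gene's other starts. In Tnfaip3 a second site lay 125 to 116 bases before the start, and the window of its other start had no match. In Bcl3 the match lies behind the start, at bases 3 to 12 of the transcript. A match is a description of the letters only, and no match says nothing about binding elsewhere in the gene. Nfkb1, Relb and Nfkbiz had no window in the table.

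The first comparison asks how the 10 genes responded to UV in each genotype, averaged over both sexes. In WT mice 8 were higher after UV, Rel was lower and Nfkb1 did not pass the test (adjusted p under 0.05 from the quasi-likelihood test of edgeR, with the Benjamini-Hochberg method over all 15546 genes). UV changed most of the transcriptome: in WT 71% of all genes tested were called, and 34.5% of all genes tested were called higher. The count of called members is therefore no result about these genes, and sizes are given beside the share of all genes. The members were chosen with earlier results of these data known, so these shares are a description and no excess over them is tested. A rise past 1.5-fold was seen for 7 members, against 21.8% of all genes. The values of the 8 UV-exposed and 8 control mice did not overlap for 6 members, all of them higher after UV, against 43.4% of all genes without overlap and 21.3% without overlap and higher. In KO mice 8 members were again higher and Rel lower, with 70.8% of all genes called and 37.3% called higher. There 6 members rose past 1.5-fold (24.8% of all genes), and 7 did not overlap, all higher (35.1% of all genes without overlap, 18.6% higher). The median log2 fold change over the 10 members was 1.08 in WT and 0.98 in KO, beside -0.01 and 0.09 over all genes.

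**Figure D1:**
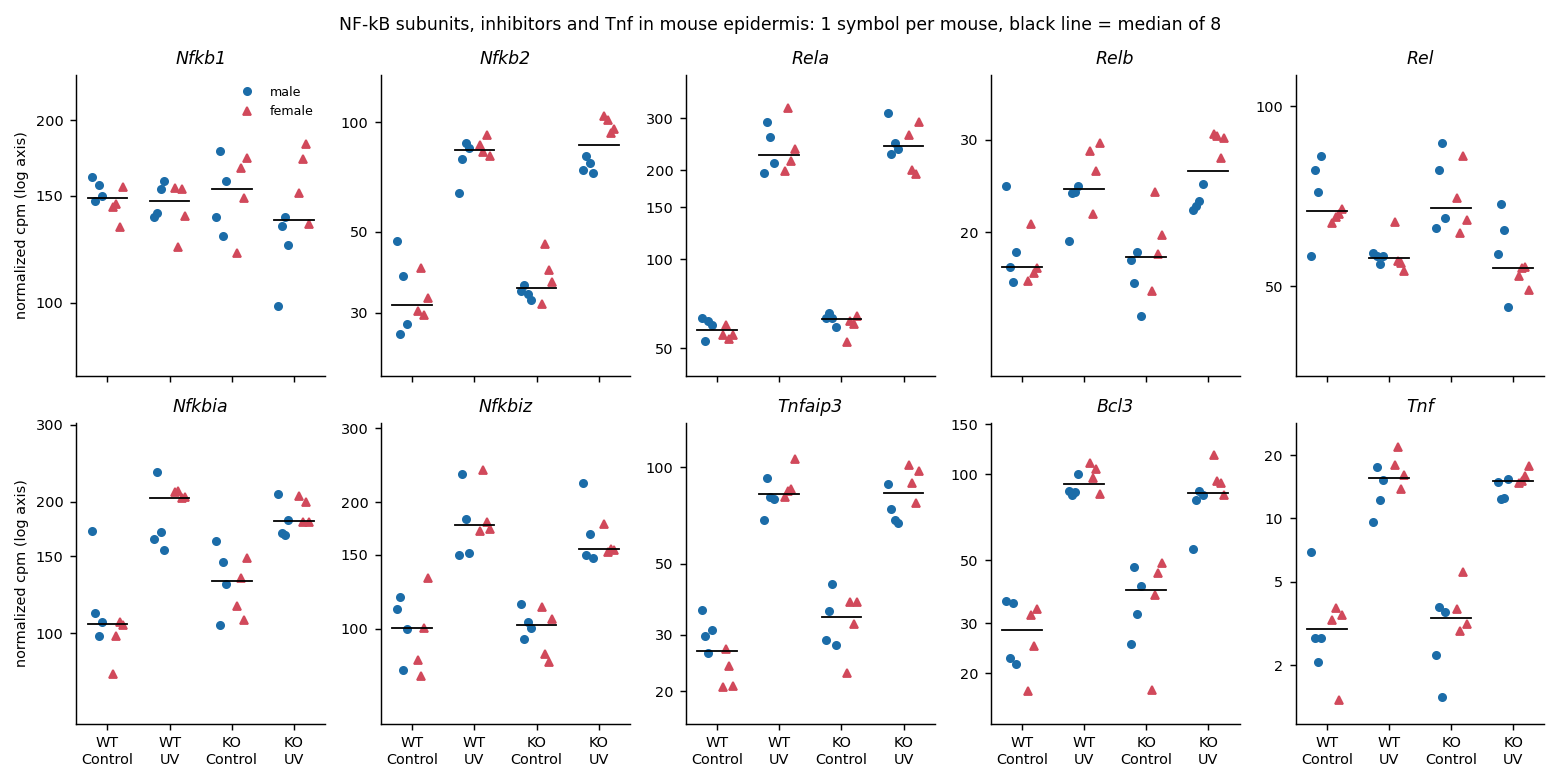
Normalized cpm of each of the 10 genes (log axis) in the 32 mice, by genotype and treatment, with circles for males, triangles for females and a black line at the median of 8 mice. Rela, Tnfaip3, Bcl3, Nfkb2, Nfkbiz and Tnf separate UV from Control in both genotypes, whereas Nfkb1 stays on 1 level and Rel lies slightly lower after UV.

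Rela (p65, chr19:5637483-5648130, + strand) encodes the subunit that carries the strongest activation domain of the canonical NF-kB pair. It ranged from 53.1 to 63.1 normalized cpm (median 57.8) in WT controls and from 195 to 324 (median 226) after UV. In KO mice it ranged from 52.6 to 66 (median 62.7) without UV and from 194 to 313 (median 241) after UV. The groups were far apart in both genotypes, with the lowest UV-exposed mouse above the highest control. The log2 fold change was 2.06 ± 0.10 (SE) in WT (4.17-fold, adjusted p = 8.65e-16, edgeR) and 2.00 ± 0.10 in KO (4.01-fold, adjusted p = 1.59e-15, edgeR). The controls lay close together, with a coefficient of variation of 6.62% in WT and 6.88% in KO, and it was 19.3% and 16.8% after UV. The 3 highest WT values after UV were those of 57F, 38M and 57M, and the highest KO value that of 58M. A rise of at least 4-fold in both genotypes at an adjusted p under 0.05 was found for 5.45% of all genes.

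Nfkb1 (p105, the precursor of p50, chr3:135584655-135691547, - strand) encodes the usual partner of Rela. It ranged from 133 to 161 normalized cpm (median 148.5) in WT controls and from 123 to 159 (median 147) after UV. The KO values were 121 to 178 (median 154) without UV and 98.7 to 183 (median 137) after UV. All 4 groups lay on the same level. The log2 fold change was -0.04 in WT (95% interval -0.20 to 0.13, adjusted p = 0.715, edgeR) and -0.11 in KO (95% interval -0.27 to 0.06, adjusted p = 0.257, edgeR), so that a rise above 0.13 or a fall beyond 0.27 on the log2 scale lies outside both intervals.

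Nfkb2 (p100, the precursor of p52, chr19:46304320-46312385, + strand) belongs to the non-canonical branch, which is driven by NIK. It ranged from 26.3 to 47.4 normalized cpm (median 31.6) in WT controls and from 64.0 to 92.0 (median 83.8) after UV. In KO mice the values were 31.8 to 46.3 (median 35.1) and 72.3 to 104 (median 86.8). No UV-exposed mouse fell into the control range in either genotype. Nfkb2 rose by 1.27 ± 0.10 (SE) on the log2 scale in WT and by 1.26 ± 0.10 in KO, that is 2.42-fold and 2.39-fold (adjusted p = 3.38e-12 and 4.91e-12, edgeR). Overlapping genes on the other strand (Psd and AC114539.1) had at most 1.48 and 5.97 normalized cpm in any mouse, and the libraries were stranded.

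Relb (chr7:19606217-19629438, - strand) encodes the main partner of p52. It ranged from 16.1 to 24.5 normalized cpm (median 17.1) in WT controls and from 19.3 to 29.5 (median 24.2) after UV. The KO values ran from 13.8 to 23.8 (median 17.9) and from 22.1 to 30.7 (median 26.2). Both pairs of groups overlapped, in WT through the control 43M and the UV-exposed 32M, and in KO through the control 60F. Relb rose by 0.42 ± 0.09 (SE) on the log2 scale in WT and by 0.56 ± 0.09 in KO (adjusted p = 0.00019 and 5.84e-06, edgeR). In WT this was the smallest rise among the members called, in KO that of Nfkbia was smaller.

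Rel (c-Rel, chr11:23736847-23770970, - strand), the subunit best known from lymphocytes, was the only member called lower after UV over both sexes. It ranged from 56.2 to 82.7 normalized cpm (median 66.7) in WT controls and from 52.9 to 64.0 (median 55.6) after UV. In KO mice it ranged from 61.3 to 86.9 (median 67.7) and from 46.1 to 68.7 (median 53.7). The groups overlapped in both genotypes. The log2 fold change was -0.29 ± 0.08 (SE) in WT and -0.37 ± 0.08 in KO (adjusted p = 0.00253 and 0.000226, edgeR). Of 13 tested T cell markers, 9 were lower and 1 higher in WT, and 8 and 1 in KO. Beside them, 36.5% and 33.5% of all genes were called lower. The median log2 fold change of these markers was -1.25 in WT and -0.64 in KO. Ptprc changed by -1.04 in WT and by -0.16 in KO, where it was not called. The dependence of Rel on these cells was not tested. In fits of 1 sex Rel missed the threshold in WT females (-0.17, adjusted p = 0.0841) and in KO males (-0.30, adjusted p = 0.0638, edgeR).

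Nfkbia (IkBα, chr12:55489410-55492647, - strand) encodes the inhibitor that NF-kB itself induces and that carries it back to the cytoplasm. It ranged from 80.8 to 172 normalized cpm (median 105) in WT controls and from 155 to 233.5 (median 204) after UV. The KO mice had 104.5 to 162 (median 132) without UV and 168 to 208 (median 181) after it. In WT 1 control mouse, 43M, lay inside the UV range and the other controls ended at 111, whereas the KO groups did not overlap. The rise of Nfkbia was 0.83 ± 0.11 (SE) on the log2 scale in WT (1.78-fold, adjusted p = 1.06e-07, edgeR) and 0.51 ± 0.11 in KO (1.43-fold, adjusted p = 0.00013, edgeR). Without 43M the WT value was 0.94.

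Nfkbiz (IkBζ, chr16:55811375-55838899, - strand) encodes a nuclear IkB protein that helps NF-kB to switch on a second wave of genes in keratinocytes. It ranged from 77.2 to 132 normalized cpm (median 100.3) in WT controls and from 150 to 238 (median 176.5) after UV. The KO values ran from 83.4 to 114 (median 102) and from 147 to 222 (median 155). Neither genotype showed overlap. On the log2 scale Nfkbiz rose by 0.88 ± 0.12 (SE) in WT and by 0.73 ± 0.12 in KO (adjusted p = 1.82e-07 and 3.92e-06, edgeR).

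Tnfaip3 (A20, chr10:19000910-19015657, - strand) encodes a ubiquitin-editing enzyme that shuts off signals from TNF and Toll-like receptors ahead of IKK. It ranged from 20.6 to 35.9 normalized cpm (median 26.7) in WT controls and from 68.4 to 106 (median 82.8) after UV. Among KO mice the values ran from 22.8 to 43.2 (median 34.1) and from 66.8 to 102 (median 83.3). The groups were well separated in both genotypes, and the levels after UV nearly coincided. Tnfaip3 rose by 1.67 ± 0.11 (SE) on the log2 scale in WT (3.17-fold, adjusted p = 2.04e-13, edgeR) and by 1.31 ± 0.11 in KO (2.48-fold, adjusted p = 2.46e-11, edgeR).

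Bcl3 (chr7:19808462-19822770, - strand), an atypical IkB protein, binds p50 and p52 pairs in the nucleus. It ranged from 17.3 to 36.0 normalized cpm (median 28.5) in WT controls and from 84.6 to 109 (median 92.6) after UV. In KO mice it ranged from 17.5 to 48.8 (median 39.1) and from 54.5 to 117 (median 86.3). There was no overlap in either genotype, although the KO mouse 58M lay near the KO controls after UV. Bcl3 rose by 1.76 ± 0.17 (SE) on the log2 scale in WT (3.38-fold, adjusted p = 9.11e-10, edgeR) and by 1.24 ± 0.17 in KO (2.36-fold, adjusted p = 4.1e-07, edgeR). Its coefficient of variation was 25.6% in WT controls and 10.2% after UV.

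Tnf (chr17:35199381-35202007, - strand) encodes the cytokine that both activates NF-kB and is induced by it. It ranged from 1.37 to 6.89 normalized cpm (median 2.99) in WT controls and from 9.66 to 22 (median 15.6) after UV. In KO mice it ranged from 1.41 to 5.53 (median 3.37) and from 12.4 to 17.8 (median 15.1). The lowest UV-exposed mouse lay above the highest control in both genotypes. The log2 fold change was 2.24 ± 0.23 (SE) in WT (4.74-fold, adjusted p = 2.55e-09, edgeR) and 2.18 ± 0.23 in KO (4.55-fold, adjusted p = 4.26e-09, edgeR). Tnf was the most variable member in WT controls, with a coefficient of variation of 50.4%, set mainly by 43M, and without that mouse its WT log2 fold change was 2.51. The summed neutrophil, monocyte and macrophage markers of 43M were also the highest of the WT controls (131 normalized cpm, median 94.6). Macrophages and T cells also make Tnf. Of 11 tested neutrophil, monocyte and macrophage markers, 7 were higher and 1 lower after UV in WT, and 8 and 1 in KO. Of 13 tested T cell markers, 1 was higher and 9 lower in WT, and 1 and 8 in KO. Of 10 Langerhans and dendritic cell markers, 0 were higher and 7 lower in WT, and 3 and 6 in KO. Over all genes tested, 34.5% were higher and 36.5% lower in WT, and 37.3% and 33.5% in KO. Ptprc changed by -1.04 on the log2 scale in WT and by -0.16 in KO, where it was not called. The part of these cells in the rise was not tested.

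**Figure D2:**
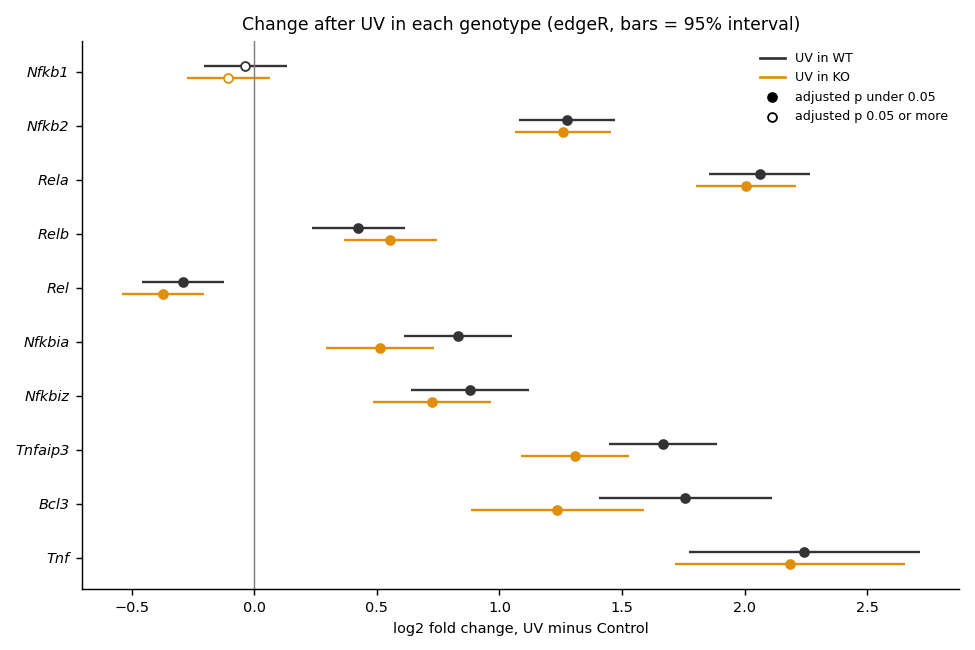
Log2 fold change after UV (UV minus Control) of the 10 genes in WT (dark) and KO mice (orange), with 95% intervals from edgeR and filled symbols for an adjusted p under 0.05. Rela and Tnf lie near 2 in both genotypes, Nfkb1 near 0 and Rel below 0.

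Levels of different genes were compared per kilobase of exon, since longer transcripts collect more reads. The length was the union of all annotated exons of a gene, 12061 bases for Nfkb1 (10 transcripts) and 7466 for Rel (1 transcript). It can exceed the length of the transcripts present, so the order of the genes depends on this choice. In WT controls Nfkbia stood alone at the top, with a median of 65.3 normalized cpm per kb. Nfkbiz (19.98) and Rela (18.8) followed and overlapped each other, as did Nfkb1 (12.3) and Bcl3 (11.5). Rel (8.94), Nfkb2 (6.90), Relb (4.41), Tnfaip3 (3.69) and Tnf (1.82) came below, each overlapping its neighbour in this order. After UV in WT the order by normalized cpm per kb was Nfkbia (127), Rela (73.5), Bcl3 (37.4), Nfkbiz (35.2), Nfkb2 (18.3), Nfkb1 (12.2), Tnfaip3 (11.5), Tnf (9.52), Rel (7.45) and Relb (6.22). Rela and Nfkbia then overlapped, and gaps without overlap lay between Rela and Bcl3, Nfkbiz and Nfkb2, and Nfkb2 and Nfkb1. On this scale Nfkb2 passed from below Nfkb1 to above it, and whether that holds with other transcript lengths was not tested.

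On the same per-kilobase scale the makeup of the 5 subunit mRNAs shifted towards Rela. The summed level of the 5 subunits was 52.6 ± 3.34 normalized cpm per kb in WT controls and 122 ± 14.6 after UV (SD, n = 8), and 54.6 ± 3.85 and 125 ± 11.6 in KO mice. Rela made up 35.8% ± 0.788 of that sum in WT controls and 63.7% ± 4.82 after UV, and in KO mice 36.6% ± 1.48 and 63.7% ± 5.76 (SD, n = 8). The lowest share of Rela after UV, 55.9%, lay above the highest without UV, 39.2%. Nfkb1 made up 23.5% ± 0.906 in WT controls and 10.0% ± 1.63 after UV, and Rel 17.7% ± 2.51 and 6.25% ± 0.94. The share of Nfkb2 differed little, at 14.0% ± 2.19 and 14.8% ± 1.85. Relb held 8.96% ± 0.997 and 5.25% ± 0.942 of the sum. These are shares of mRNA and say nothing of protein or of pairs in the nucleus. Their sizes rest on the exon lengths used.

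**Figure D3:**
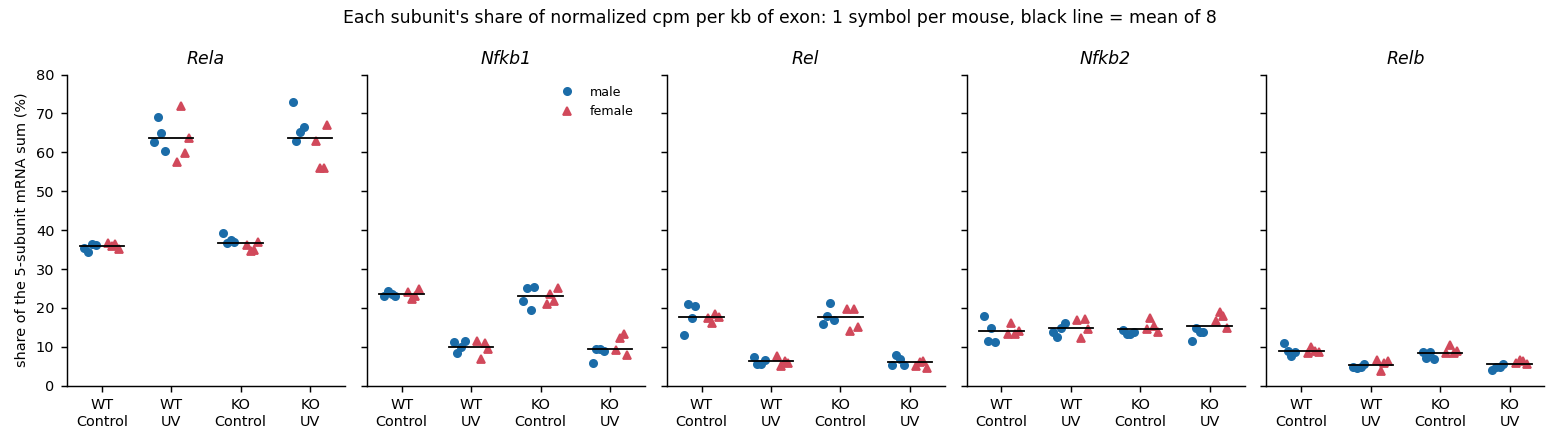
Share of each subunit in the summed normalized cpm per kb of exon of the 5 NF-kB subunits (%), 1 symbol per mouse, with circles for males, triangles for females and a black line at the mean of 8 mice. Rela goes from 35.8% to 63.7% in WT mice and from 36.6% to 63.7% in KO mice, while the shares of Nfkb1 and Rel shrink.

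The second comparison asks whether the genotype changed these genes. None of the 10 differed between KO and WT at an adjusted p under 0.05 in edgeR, either without UV (0.206% of all genes called) or after UV (3.31%), and the values of the 8 KO and 8 WT mice overlapped for each member in both states (groups without overlap made up 0.103% and 0.187% of all genes). DESeq2 and limma-trend also called 0 members in both. Of the 32 genes called without UV, 13 lie on chromosome 17, which carries Ppard and, 6.97 Mb from it, Tnf. The share of chromosome 17 among all genes tested was not counted, so no excess is read from this number. For genes near Ppard, its targeting and linked strain differences cannot be told apart. At an unadjusted p under 0.05, 3 members passed without UV, where 8.52% of all genes did, and 0 after UV, where 20.1% did.

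The 3 members with an unadjusted p under 0.05 without UV were Tnfaip3, Nfkbia and Bcl3, none of them called. The KO minus WT difference on the log2 scale was 0.32 for Tnfaip3 (95% interval 0.10 to 0.54, adjusted p = 0.355, edgeR), 0.26 for Nfkbia (0.04 to 0.48, adjusted p = 0.464) and 0.40 for Bcl3 (0.05 to 0.75, adjusted p = 0.514). The other 7 members differed by between -0.04 and 0.09. After UV all 10 differences lay between -0.16 (Nfkbiz, 95% interval -0.40 to 0.08) and 0.09 (Relb, 95% interval -0.10 to 0.28). The 95% interval after UV was -0.17 to 0.23 for Rela and -0.21 to 0.13 for Nfkb1, and the wider -0.52 to 0.40 for Tnf.

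Whether the genotypes responded unequally to UV was asked of the interaction term, the log2 fold change in KO minus that in WT. No member passed (adjusted p of 0.192 or more, edgeR), among 0.765% of all genes that did. It was -0.36 for Tnfaip3 (95% interval -0.67 to -0.05, adjusted p = 0.192), -0.32 for Nfkbia (-0.63 to -0.01, adjusted p = 0.243) and -0.52 for Bcl3 (-1.02 to -0.02, adjusted p = 0.234, all from edgeR). All 3 had an unadjusted p under 0.05, as had 19.6% of all genes. These 3 interactions and the 3 differences without UV rest on the same 16 control mice and are not separate observations. Without the WT control 43M the interaction of Nfkbia was -0.43. The remaining 7 interactions lay between -0.15 (Nfkbiz) and 0.13 (Relb), and that of Rela was -0.06 (95% interval -0.35 to 0.23).

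**Figure D4:**
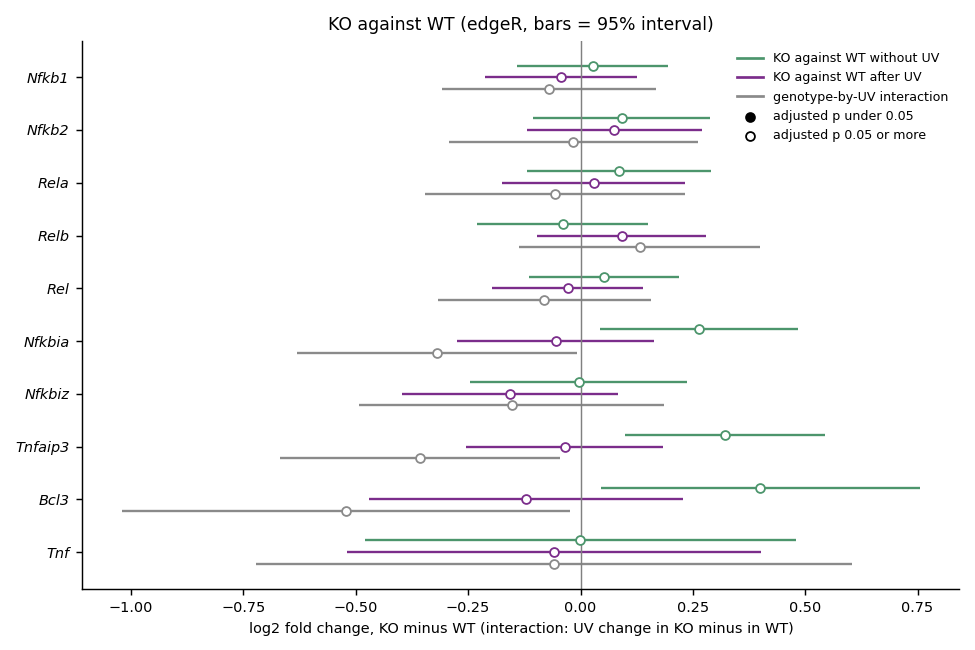
KO minus WT differences of the 10 genes without UV (green) and after UV (purple), and the difference in UV response between the genotypes (grey), on the log2 scale with 95% intervals from edgeR. All symbols are open, since no adjusted p is under 0.05, and the intervals of Nfkbia, Tnfaip3 and Bcl3 exclude 0 without UV and for the interaction.

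UV was also tested in each sex of each genotype, 4 mice against 4. In WT males 8 members were called (60.9% of all genes), in WT females 8 (61.3%), in KO males 10 (61.7%) and in KO females 9 (60.7%). Nfkb2, Rela, Nfkbia, Nfkbiz, Tnfaip3, Bcl3 and Tnf were higher in all 4 sets, as were 23.1% of all genes. Nfkb2, Rela, Nfkbiz, Tnfaip3, Bcl3 and Tnf separated UV from Control without overlap in each of the 4 sets. Taken set by set, such separation with UV higher was found for 27.1%, 28.1%, 26.6% and 28.6% of all genes in the same order. The share of all genes that separate in all 4 sets at once was not counted. The log2 fold change of Rela was 2.01 in WT males, 2.11 in WT females, 2.02 in KO males and 1.99 in KO females.

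The called members that differ among the 4 sets are those with small changes. Relb missed the threshold in WT males (0.26, adjusted p = 0.0818, edgeR) but passed there without 43M (0.41, adjusted p = 0.00712) or without 32M (0.35, adjusted p = 0.034). Rel missed it in WT females (-0.21, adjusted p = 0.117, edgeR). Nfkb1 passed only in KO males (-0.29, adjusted p = 0.035, edgeR), and that call was lost with no scaling beyond the totals (-0.24, adjusted p = 0.139), with filterByExpr (-0.27) or no filter on low counts (-0.28), and without any 1 of 9 mice (44M, 54F, 58M, 59F, 61F, 62F, 67M, 72M or 73F), where it ranged from -0.29 without 72M to -0.16 without 58M. In KO males the call of Rel was lost without 52M (-0.22), 58M (-0.28) or 72M (-0.23), and that of Nfkbia without 44M (0.32, adjusted p = 0.0848).

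A sex difference in the UV response, females minus males and averaged over the genotypes, was found for no member and for 0 of 15546 genes in edgeR, where 7.02% had an unadjusted p under 0.05. DESeq2 called 22 genes and limma-trend 2, with no member among them. The largest values among the members were 0.46 for Tnfaip3 (95% interval 0.14 to 0.77, adjusted p = 0.558) and 0.35 for Nfkbia (0.04 to 0.66, adjusted p = 0.692, both from edgeR), and without 43M the latter was 0.24.

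After their values had been seen, females and males were compared after UV. Among KO mice the 4 UV-exposed females had 93.1 to 104 normalized cpm of Nfkb2 and the 4 males 72.3 to 80.5, and Relb lay at 27.7 to 30.7 in the females and 22.1 to 24.7 in the males. The sexes did not overlap for these 2 of the 10 members, both higher in females, as for 6.91% of all genes. Among WT mice the ranges of Nfkb2 were 80.7 to 92.0 in females and 64.0 to 87.9 in males, and those of Relb 21.7 to 29.5 and 19.3 to 24.5, so the sexes overlapped. Over both genotypes the difference, females minus males, was 0.29 for Relb (adjusted p = 0.0701) and 0.24 for Nfkb2 (adjusted p = 0.136, edgeR), and 0 members were called among 3.03% of all genes. Relb passed without 43M (0.29, adjusted p = 0.0462), without 57F (0.33, adjusted p = 0.0471) and with no scaling beyond the totals (0.38, adjusted p = 0.0331, edgeR), a setting that moved the median over all genes from 0.03 to 0.11.

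For 9 of the members the gene with the most similar course over the 32 mice was taken, measured as the root mean square difference of log2 cpm after centring each gene. Nfkb2 was nearest to Junb (0.181), Rela to Smad7 (0.146), Relb to Ctdnep1 (0.151) and Rel to Iqgap1 (0.111). Nfkbia was nearest to Whamm (0.178), Nfkbiz to Pnn (0.176), Tnfaip3 to Stx3 (0.216), Bcl3 to Mdfi (0.23) and Tnf to Cyp4f16 (0.374). None of these 9 had another member as its nearest gene. The median distance of all genes was 0.564 from Rel and 1.34 from Tnf, and the points share treatment, so that a small distance mainly describes a shared response to UV.

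The rest of the pathway was described with 6 lists of 127 genes in all, of which 116 were tested and 3 stand in 2 lists each. A gene scarce in the controls could enter the tests only through UV-exposed mice. The lists were also chosen with earlier results of these data known, so their counts are a description and no test of the lists. Beside each count, 34.5% of all genes were higher and 36.5% lower in WT, and 37.3% and 33.5% in KO. Among the TNF superfamily ligands other than Tnf, 4 of 13 tested were higher and 7 lower in WT, and 6 higher and 3 lower in KO. Tnfsf18 (GITRL), a ligand that costimulates T cells, went from a median of 0.914 to 19.6 normalized cpm in WT (log2 fold change 4.26, adjusted p = 2.71e-17, edgeR), and Tnfsf9 (4-1BBL) and Tnfsf11 (RANKL) rose by 3.03 and 2.71. Tnfsf10 (TRAIL), a death ligand, fell by 3.90, Eda fell by 2.47 and Tnfsf13 (APRIL) fell by 1.37 on the log2 scale. Ltb, a ligand of the non-canonical branch, fell by 1.09 in WT but was 0.64 higher after UV in KO, with an interaction of 1.73 (adjusted p = 0.0162, edgeR). It lay between 0.509 and 2.85 normalized cpm in all mice, and the rise in KO was lost without any 1 of 44F, 52M, 58M, 66F and 67M (lowest 0.51, without 58M). The KO minus WT difference of Ltb after UV, 0.99 (adjusted p = 0.0306, edgeR), was lost without any 1 of 7 mice (lowest 0.86, without 58M), among them 54F (0.98).

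Of the 20 receptors upstream of NF-kB, 10 were higher and 6 lower in WT, and 12 and 7 in KO. Tnfrsf10b (the mouse TRAIL receptor) rose from a median of 4.16 to 70.4 normalized cpm in WT (4.08 on the log2 scale, adjusted p = 2.33e-17, edgeR), Tlr1 by 2.55 and Tnfrsf12a (the TWEAK receptor) by 2.13. Tnfrsf11a (RANK) fell by 3.24, the interleukin-1 receptor Il1r1 by 2.13 and its partner Il1rap by 1.22. After UV Tnfrsf11a was 0.87 higher in KO than in WT (adjusted p = 0.0161, edgeR), but 0.73 without the KO mouse 58M (adjusted p = 0.0624) and 0.02 in males alone.

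Of the 25 adaptors and ubiquitin ligases that pass the signal on, 6 were higher and 13 lower in WT, and 5 and 13 in KO. Myd88, the adaptor of interleukin-1 and Toll-like receptors, went from a median of 85.4 to 217 normalized cpm in WT (1.39 on the log2 scale, adjusted p = 5.93e-17, edgeR), and Traf1 and Bcl10 rose by 1.17 and 0.93. Card9 fell by 2.34, Traf5 by 1.76 and Peli2 by 1.56. Of the 10 genes of the IKK complex and related kinases, 3 were higher and 5 lower in each genotype, all within 1 on the log2 scale. Map3k7 (TAK1), Chuk (IKKα) and Tbk1 rose by 0.57, 0.38 and 0.37 in WT, while Map3k14 (NIK), the kinase of the non-canonical branch, fell by 0.99, Tab2 by 0.84 and Tab1 by 0.31.

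Of 21 tested IkB proteins and negative regulators other than the members, 12 were higher and 4 lower in WT, and 10 and 4 in KO. Socs1, an inhibitor of cytokine signals, rose from a median of 1.52 to 7.96 normalized cpm in WT (2.42 on the log2 scale, adjusted p = 9.87e-11, edgeR), Tnip3 by 1.26 and Tollip by 1.24. Cyld fell by 0.93, Commd1 by 1.67 and Nlrc3 by 2.64. Cyld, which like Tnfaip3 removes ubiquitin chains, went from a median of 54.8 to 26.7 normalized cpm in WT.

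Of 36 target genes of NF-kB, 30 were tested and 6 had too few reads in every mouse. Of the 30, 23 were higher and 2 lower in WT, and 23 and 3 in KO. Their median log2 fold changes were 1.29 and 2.10. These counts and medians partly depend on that filter, because a target near 0 in the controls could enter only through UV-exposed mice. Cxcl1, a neutrophil chemokine, rose from a median of 0.282 to 23.7 normalized cpm in WT (6.01 on the log2 scale, adjusted p = 5.39e-14, edgeR). Defb4 and Csf3, at a median of 0 normalized cpm in WT controls, reached medians of 1.92 and 1.32 after UV. The macrophage growth factor Csf1 fell by 1.95 and Birc3 (cIAP2) by 0.22 in WT, and the call of Birc3 was lost without any 1 of 7 mice (-0.16 without 57F). Mmp9 did not pass in WT (-0.46, adjusted p = 0.14) and rose by 1.20 in KO (interaction 1.66, adjusted p = 0.0385, edgeR), an interaction that was lost without any 1 of 18 mice (lowest 1.49, without 43M). After UV it was 1.25 higher in KO than in WT (adjusted p = 0.0161, edgeR). Tnfsf13b (BAFF), of the ligands, entered the tests only through 54F, a UV-exposed KO mouse, and without it had too few reads to be tested. Its KO minus WT difference after UV is therefore no test of genotype. That difference was 2.10 on the log2 scale, at medians of 0.358 and 0.103 normalized cpm. Its call was lost without any 1 of 8 mice (lowest 1.86, without 58M). Beside these genotype differences after UV, Ptprc was 0.80 higher in KO than in WT and 6 of 7 fibroblast markers were called higher (median 4.38 on the log2 scale), while 0 of 11 tested neutrophil, monocyte and macrophage markers (median 0.91) and 0 of 13 T cell markers (median 0.51) were called. The KO mouse 54F was the highest in fibroblast markers and in Ptprc. Its summed fibroblast markers were 1995 normalized cpm, against medians of 11.6 in KO and 4.75 in WT after UV. Its Ptprc was 52.9, against medians of 19.8 and 10.9. The part of these markers in the genotype differences was not tested.

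**Figure D5:**
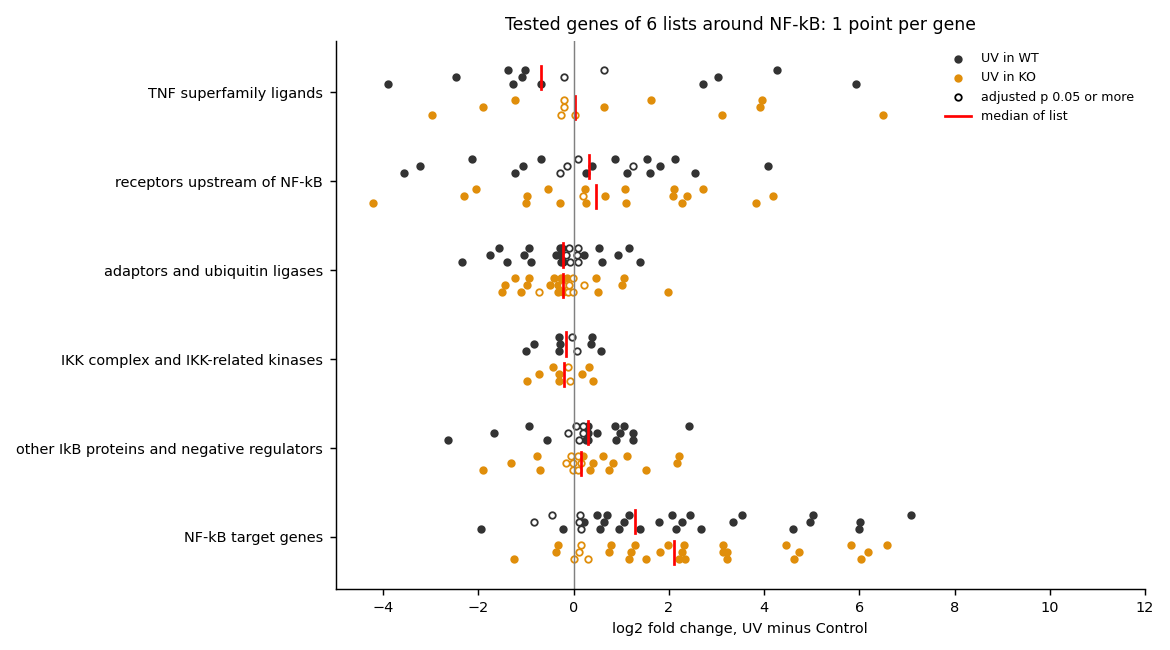
Log2 fold change after UV (UV minus Control) of each tested gene of 6 lists around NF-kB in WT (dark) and KO mice (orange), with open symbols where the adjusted p was 0.05 or more and a red line at the median of the list. The medians of the target genes, 1.29 and 2.10, lie to the right of 0, and those of the IKK list, -0.16 and -0.21, close to it.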

How the data were processed

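Epidermal RNA of 32 mice was sequenced with stranded mRNA libraries. Adapters were cut with Cutadapt 1.8 by the authors, who then dropped ribosomal and low-complexity sequences, mapped the rest with STAR 2.5.3a and assigned them to genes with HTSeq 0.9.1. The labels name GRCm38. The deposited values are raw counts. Reads on no gene, 6.80% to 9.75%, were left out. Replicates are separate mice, and pairs of mice of a group differed beyond counting noise (chi-square per degree of freedom 21.3 to 147 over 48 pairs).

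A gene was tested if any of the mice reached 1 cpm. The 8 group means were fitted to TMM-scaled counts by the quasi-likelihood method of edgeR 4.0.16 (R 4.3.3), where the study used limma-trend, and p-values were adjusted over all genes. Standard errors and intervals are Wald estimates from that fit. Alternatives were DESeq2 1.42.0, limma 3.58.1, other scalings and filters, a sex term, 1 sex alone and leaving out each mouse. Calls were also run on simulated counts, with 200 genes raised in UV-exposed KO mice and no other effect of UV or sex. That setting is unlike these data, where UV changed most genes, so no error rate is taken from it. Exon lengths and coordinates are from GENCODE M21. Mouse numbers were not used as pairs.

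Members and lists were chosen with earlier results of these data known. Named were all members, Ppard, up to 3 rises and 3 falls per list in WT among called genes with a mean of at least 10 counts, list genes with a called genotype difference or interaction, and each member's nearest gene, of which that of Nfkb1 is not reported here.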

Additional observations from a re-analysis of the deposited data

Results flagged for a closer look

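Within the 8 groups of 4 mice, the 10 members gave 80 sets of 4 values, and in 4 of them 1 mouse lay far from the other 3 by Dixon's criterion at the 95% level, which chance passes in about 1 of 20 sets. Relb was 19.3 normalized cpm in the UV-exposed WT male 32M, against 23.7 to 24.5 in the other 3. Nfkbiz was 238 normalized cpm in the UV-exposed WT female 57F, against 171 to 180, and 178 in the UV-exposed KO female 52F, against 152 to 155. Tnf was 6.89 normalized cpm in the WT control male 43M, against 2.06 to 2.71. Of the 8 WT controls, mouse 43M also had the highest Nfkbia (172), Nfkb2 (47.4) and Relb (24.5). It was the highest in Rela (63.1), Nfkb1 (161), Tnfaip3 (35.9) and Bcl3 (36.0) too, and the lowest in Rel (56.2). Its summed fibroblast markers (72.6 normalized cpm, median 21.6) and summed neutrophil, monocyte and macrophage markers (131, median 94.6) were also the highest. The cause was not tested.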

How the results depend on the processing

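No paired analysis was possible because each label, such as 44F or 44M, names a single mouse, and although some mice share digits, no comparison of UV with Control within a genotype or of KO with WT within a treatment has more than 1 number in common, and no source says that shared digits mark a litter or batch. Of 100 member differences, 53 were called, and none of these changed sign in the 2139 values computed under the alternatives, whereas the 47 others changed sign in 155 of 1931, so no direction is read from them. Called UV differences of members were lost in at least 1 setting 6 times, each for Relb, Rel, Nfkb1 or Nfkbia. Over both sexes 9 members were called in WT and in KO without any 1 mouse, and 10803 to 11092 genes in WT and 10757 to 11076 in KO.

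Counts over all genes between the genotypes were less stable, with 0 members called in any setting. KO against WT without UV gave 32 genes, but 78 with DESeq2, 5 in males, 2 in females and 20 to 45 without 1 mouse. After UV it gave 514, but 1116 with DESeq2, 260 with limma-trend, 263 without a filter, 7 in males, 1383 in females, 248 without 43M and 54F together (added after seeing the data) and 133 (without 51F) to 983 (without 59M). The interaction gave 119, but 841 with DESeq2, 55 without a filter, 6 in males, 12 in females and 56 (without 69M) to 346 (without 59M). Sex by UV gave 0, but 22 with DESeq2, 2 with limma-trend and 0 to 1 without 1 mouse. The causes were not tested. The adjusted p of the interaction ranged over all alternatives from 0.115 to 0.911 for Nfkbia, 0.101 to 0.822 for Tnfaip3 and 0.11 to 0.746 for Bcl3. Without 1 mouse, members called ranged from 8 to 9 in WT males and 8 to 10 in KO males. Depth limits Tnf most, whose lowest count was 32 reads.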
